A study of Rattus norvegicus with 22 samples.

Results

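The opioid peptides and receptors comprised 8 of the 17310 genes listed in the count files of nucleus accumbens (NAc) tissue from rats, and were taken by exact gene symbol. They were 4 peptide precursor genes (Penk, Pdyn, Pnoc and Pomc) and 4 receptor genes (Oprm1, Oprd1, Oprk1 and Oprl1), and all 8 were listed. Polyadenylated RNA was sequenced from 22 male outbred Wistar rats, each kept in a cage of its own, and each library came from the NAc core and shell of 1 rat, dissected from both hemispheres; the rats were killed within minutes of taking away the drinking bottles. In experiment 1, 5 rats drank water alone, and 5 rats chose freely between water and 6 v/v % EtOH for 8 weeks. In experiment 2, all 12 rats had the same choice for 4 weeks before and 2 weeks after a gavage period of 3 weeks, in which fluid was given by a tube into the stomach. In that period 6 rats received 30 v/v % EtOH 2 times a day, 2.5 g/kg each time, and the other 6 received water. Experiment 2 therefore had no group without EtOH, and its comparison concerned the forced dose on top of voluntary drinking.

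Opioid peptides are cut from large precursor proteins by proteases in secretory vesicles, and they act on receptors that couple mainly to inhibitory G proteins. In the striatum, of which the NAc is the ventral part, Penk is made above all by the projection neurons of the indirect pathway, which carry the dopamine receptor Drd2, and Pdyn by those of the direct pathway, which carry Drd1. Enkephalin and mu receptor signalling in the NAc is known for its part in reward and in EtOH drinking, and dynorphin and kappa receptor signalling for aversive states and withdrawal.

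Promoter windows of 300 bases around the transcription start, from RefSeq (build GRCr8), were matched for 4 of the 8 genes, Pdyn, Pomc, Oprm1 and Oprd1. Pdyn and Pomc are shown because Pdyn had 898 or more reads in every library and Pomc was at or near 0 in experiment 2. The sequences run from 100 bases before to 20 bases after the start, at chr3:137366484-137366603 on the minus strand for Pdyn and chr6:32659253-32659372 on the plus strand for Pomc, and capitals mark the letters TATAAA.
Pdyn: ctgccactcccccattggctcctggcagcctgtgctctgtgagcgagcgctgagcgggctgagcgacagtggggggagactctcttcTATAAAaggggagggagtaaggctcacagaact
Pomc: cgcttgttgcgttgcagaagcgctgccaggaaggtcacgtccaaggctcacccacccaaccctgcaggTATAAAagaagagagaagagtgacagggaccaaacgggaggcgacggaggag
TATAAA, the core of the TATA box, was searched for on both strands over the whole 300 bases. It began 13 bases before the start of Pdyn and 32 bases before that of Pomc, and these letters were not in the windows of Oprm1 or Oprd1. Of 33469 windows of that length in the RefSeq table, 14.2% held it on either strand. A match is a description of the letters and not of a bound site.

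The reads on genes numbered 2962291 to 5247386 per rat in experiment 1 and 6713617 to 8765472 in experiment 2. Striatal markers were read beside the tissue label: 6 of 6 direct pathway and 5 of 5 indirect pathway markers had reads in every group. Their summed levels per rat were 633 to 1480 and 343 to 903 CPM (here reads scaled by the effective size of the library). Having reads cannot decide the label, since all 6 cortical and all 5 choroid plexus and ependyma markers had reads in every group too. In experiment 2 the first principal component held 74% of the variance, and the 4 libraries lowest on it are said below to stand apart. They were water gavage rats 1 and 5 (-36.9 and -17.9) and EtOH gavage rats 1 and 2 (-86.5 and -48.7), against 4.04 to 49.9 in the other 8. This cut was chosen after seeing the data and is not a clear break, since the 4 differed as widely among themselves. In these 4 libraries 52.8 to 57.98% of reads lay outside annotated genes, against 46.09 to 51.68% in the other 8. All 6 cortical excitatory neuron markers had reads in both groups of experiment 2, and their summed level was 5.51 to 44.8 CPM in the 4 libraries and 87.5 to 554 CPM in the other 8. Other marker lists differed as well, with overlapping ranges. Direct pathway markers summed to 1220 to 1480 CPM in the 4 libraries and 910 to 1240 CPM in the other 8. Astrocyte markers summed to 3610 to 4830 against 2800 to 3950 CPM, and microglia markers to 157 to 257 against 226 to 370 CPM. The differences between groups in experiment 2 are therefore given with and without these 4 libraries.

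Over the 8 genes, 0 passed the test in either experiment. In experiment 1 the filter on low counts kept 3 of them (Penk, Pdyn and Oprl1), of which 0 had a false discovery rate (FDR, Benjamini-Hochberg) under 0.05 by the quasi-likelihood test of edgeR, where 0% of the 8655 genes tested did. At an unadjusted p under 0.05, 0 of the 3 were below the threshold, against 5.58% of all genes tested. In experiment 2 the filter kept 5 (Penk, Pdyn, Oprm1, Oprk1 and Oprl1), of which 0 had an FDR under 0.05, again with 0% over all 8655 genes. There, 1 of the 5 (Oprk1) had an unadjusted p under 0.05, against 1.33% of all genes. With each rat left out in turn, Oprk1 kept an unadjusted p under 0.05 in 5 of 12 fits and lost it in 7, and Penk had one in 2 of the 12. In those 2 fits, without water gavage rat 1 or EtOH gavage rat 4, 8.94% and 8.97% of all genes did. Oprk1 was below the threshold in those 2 fits as well, and in its remaining fits below it the share was 0.855 to 1.42% of all genes. Without the 4 libraries that stood apart 0 of the 5 had an unadjusted p under 0.05, where 10.6% of all genes did, and 0% of all genes had an FDR under 0.05. Without the filter, edgeR gave 0 of the 8 members an unadjusted p under 0.05 in experiment 1 (5.85% of all genes) and 1 (Oprk1) in experiment 2 (2.03% of all genes). DESeq2, run on all 8 genes, likewise called 0 of those it gave an FDR at a threshold of 0.05 in each experiment (0% of the genes it gave an FDR in both), with 0 members at an unadjusted p under 0.05 in experiment 1 (4.51% of all genes) and 1 (Oprk1) in experiment 2 (2.23% of all genes). The normalized counts of the groups overlapped for every member in both experiments, where 0.843% and 0.0116% of all tested genes had groups that did not. Fewer cells of a type and less RNA per cell cannot be told apart in bulk tissue.

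**Figure D1:**
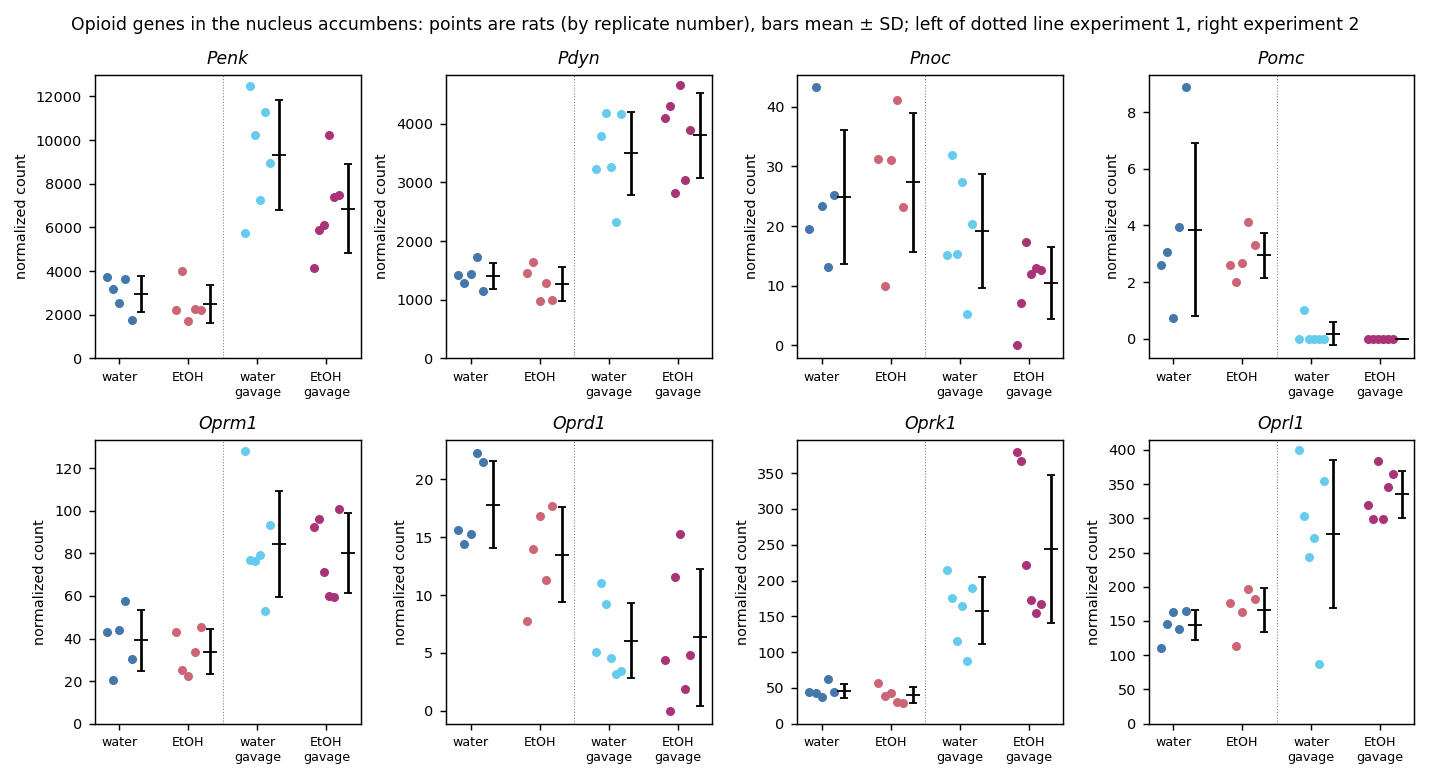
Normalized counts of the 8 opioid genes, with 1 point per rat and the mean ± SD of each group (5 rats per group in experiment 1, 6 in experiment 2); counts were scaled within each experiment, so the height left of the dotted line is not comparable with that right of it. In every panel the points of the EtOH group and of its water group share part of their range, and Pomc has 1 read in 1 rat of experiment 2.

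Penk encodes proenkephalin, the precursor of the enkephalins. In experiment 1 its normalized counts, which are reads scaled to 1 common library size per experiment, were 3713, 3167, 2548, 3617 and 1758 in water rats 1 to 5. In EtOH rats 1 to 5 they were 2234, 4024, 1717, 2249 and 2210. EtOH rat 2 stood above all 5 water rats and the other 4 EtOH rats stood below 4 of them, so the groups overlapped. The means were 2961 ± 815 (SD, n = 5) with water and 2487 ± 888 (SD, n = 5) with EtOH. The log2 fold change of EtOH over water was -0.25 (SE 0.21, 95% interval -0.70 to 0.21), with an FDR of 0.934 in edgeR's test. Without EtOH rat 2 it was -0.49 with an unadjusted p under 0.05 and an edgeR FDR of 0.515. In that fit 7.6% of all genes had an unadjusted p under 0.05, and Penk had none in the other 9 fits that left out 1 rat.

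In experiment 2 the Penk normalized count after water gavage ran from 5747 over a median of 9585 to 12460. After EtOH gavage it ran from 4125 over a median of 6747 to 10220. The means were 9318 ± 2520 (SD, n = 6) and 6865 ± 2040 (SD, n = 6), and EtOH gavage rat 4 exceeded 3 of the water gavage rats. The log2 fold change was -0.44 (SE 0.22, 95% interval -0.92 to 0.04), or 0.737-fold (0.528 to 1.03), with an edgeR FDR of 0.675. An exact permutation test over the rats, two-sided, gave p = 0.108, where the smallest p the design allows is 0.00216. The 2 lowest Penk counts of the EtOH gavage group, 4125 and 5893, were those of its rats 1 and 2, which stood apart. Without the 4 libraries that stood apart the log2 fold change was -0.29 (edgeR FDR 0.488), and with the first principal component as a covariate it was -0.25.

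Pdyn encodes prodynorphin, the precursor of the dynorphins that act on the kappa receptor. In experiment 1 its normalized counts were 1425, 1282, 1443, 1721 and 1148 in water rats 1 to 5. The EtOH rats 1 to 5 had 1447, 1645, 985, 1288 and 994. EtOH rats 3 and 5 stood below every water rat, and the other 3 EtOH rats were inside the range of the water rats. The means were 1404 ± 214 (SD, n = 5) and 1272 ± 287 (SD, n = 5), a log2 fold change of -0.14 (SE 0.14, 95% interval -0.43 to 0.15) with an edgeR FDR of 0.946.

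After water gavage in experiment 2, the normalized count of Pdyn ran from 2326 over a median of 3532 to 4183. After EtOH gavage it ran from 2825 over a median of 3996 to 4655. The means were 3494 ± 708 (SD, n = 6) and 3802 ± 722 (SD, n = 6), with most rats of both groups in one range. The log2 fold change was 0.12 (SE 0.17, 95% interval -0.23 to 0.48), with an edgeR FDR of 0.721. Its sign turned without the 4 libraries that stood apart, where it was -0.07. The lowest water gavage count, 2326, was that of rat 5, which stood apart.

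Levels of projection neuron markers ran beside both precursors in experiment 1, and for Pdyn not over all 12 rats of experiment 2 (correlations below). In experiment 1 the summed level of 6 general projection neuron markers, all with reads, was 2130 to 3540 CPM with water (median 2680) and 1870 to 3660 CPM with EtOH (median 2200). With the mean log2 CPM of these markers as a covariate the log2 fold change of experiment 1 turned in sign to 0.04 for Penk and 0.03 for Pdyn. With the first principal component it was 0.21 and 0.06. In experiment 2 the summed level had a median of 3240 CPM after water gavage and 3420 CPM after EtOH gavage. There the marker covariate gave -0.37 for Penk and 0.12 for Pdyn, against -0.44 and 0.12 without it. The summed level of 5 neuroblast markers, all with reads, was 208 to 278 CPM with water and 280 to 391 CPM with EtOH in experiment 1. These markers include Dcx, Dlx1 and Cd24, which the authors rank among the genes with the lowest p of experiment 1 in these data. The gap between the groups there is therefore no separate result. In experiment 2 the sum was 167 to 315 CPM with water gavage and 204 to 402 CPM with EtOH gavage. Its part in the results for the opioid genes was not tested.

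Pnoc encodes prepronociceptin, the precursor of nociceptin, the peptide of the receptor encoded by Oprl1. It was below the filter in both experiments, with 10 to 42 reads per rat in experiment 1 and 0 to 32 in experiment 2. In experiment 1 its normalized counts were 19.5, 43.2, 23.3, 13.1 and 25.2 in water rats 1 to 5. In EtOH rats 1 to 5 they were 31.2, 10, 31, 41.1 and 23.2. Both groups covered nearly the same range, and the difference of the mean log2 CPM, EtOH minus water, was 0.10 (exact permutation test, two-sided, p = 0.833, smallest possible p 0.00794).

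In experiment 2 the Pnoc normalized count after water gavage ran from 5.29 over a median of 17.9 to 31.9. After EtOH gavage it ran from 0 over a median of 12.3 to 17.4. The means were 19.2 ± 9.52 (SD, n = 6) and 10.4 ± 6.03 (SD, n = 6), and water gavage rat 5 lay below 5 of the EtOH gavage rats. The difference of mean log2 CPM was -0.91 (exact permutation test, two-sided, p = 0.139). Leaving out 1 rat at a time gave -1.19 to -0.443, the former without water gavage rat 5 (exact permutation p = 0.0238) and the latter without EtOH gavage rat 1 (exact permutation p = 0.279), both of which stood apart. Without all 4 libraries that stood apart it was -0.67 (exact permutation p = 0.0571, smallest possible p 0.0286). The lowest Pnoc counts of each group were from libraries that stood apart, 5.29 and 15.2 after water gavage and 0 and 7.13 after EtOH gavage, while the other libraries held 15.3 to 31.9 and 12 to 17.4. A count of 0 in 1 library allows up to 3 reads.

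Pomc encodes pro-opiomelanocortin, the precursor of beta-endorphin, and in the brain is known mainly from neurons of the hypothalamus. In experiment 1 it had 2, 3, 1, 3 and 12 reads in water rats 1 to 5, and 2, 2, 3, 4 and 3 reads in EtOH rats 1 to 5. Water rat 5 held 12 of the 21 reads of its group. The difference of mean log2 CPM was -0.11 (exact permutation test, two-sided, p = 0.746) and turned to 0.15 without water rat 5. In experiment 2 Pomc had 1 read in water gavage rat 2 and 0 in the other 11 rats, so no fold change is given. Each 0 allows up to 3 reads in that library, and no difference was detectable at this depth. Of 6 hypothalamic markers 4 had reads in experiment 1, with a summed level of 5.48 to 12.7 CPM, and Oxt and Pmch were listed at 0 in every library.

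Oprm1 encodes the mu receptor, on which beta-endorphin and the enkephalins act. In experiment 1 it was below the filter, with 20 to 60 reads per rat, and its normalized counts were 43, 20.6, 43.8, 57.7 and 30.3 in water rats 1 to 5. In EtOH rats 1 to 5 they were 42.9, 25, 22.2, 33.9 and 45.4. All 5 EtOH rats were within the range of the water rats, and the difference of mean log2 CPM was -0.17 (exact permutation test, two-sided, p = 0.579).

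In experiment 2 Oprm1 passed the filter. Its normalized count ran from 52.9 over a median of 78 to 128 after water gavage, and from 59.4 over a median of 81.9 to 101 after EtOH gavage. The EtOH gavage rats were all within the range of the water gavage rats. The log2 fold change was -0.08 (SE 0.23, 95% interval -0.58 to 0.42), with an edgeR FDR of 0.873, and it was -0.14 without the 4 libraries that stood apart. Without water gavage rat 1, whose count of 128 was the highest, it turned to 0.08.

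Oprd1 encodes the delta receptor, a receptor of the enkephalins, and was below the filter in both experiments. In experiment 1 its normalized counts were 15.6, 14.4, 15.3, 22.3 and 21.5 in water rats 1 to 5. The EtOH rats 1 to 5 had 7.8, 14, 16.8, 11.3 and 17.7. EtOH rats 1, 2 and 4 lay below every water rat, and rats 3 and 5 within their range. The means were 17.8 ± 3.75 (SD, n = 5) and 13.5 ± 4.08 (SD, n = 5), and the difference of mean log2 CPM was -0.38 (exact permutation test, two-sided, p = 0.127). The edgeR fit without the filter gave -0.38 (SE 0.29, 95% interval -0.98 to 0.22).

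In experiment 2 Oprd1 had 3 to 11 reads per rat after water gavage and 0 to 14 after EtOH gavage. Its normalized count ran from 3.17 over a median of 4.8 to 11 after water gavage. After EtOH gavage it ran from 0 over a median of 4.63 to 15.3. The EtOH gavage group held both the lowest and the highest value. The difference of mean log2 CPM was -0.21 (exact permutation test, two-sided, p = 0.703), and the edgeR fit without the filter gave 0.10 with a 95% interval of -1.33 to 1.53. The difference of mean log2 CPM turned to 0.07 without the 4 libraries that stood apart (exact permutation p = 0.914) and to 0.14 without EtOH gavage rat 2.

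Oprk1 encodes the kappa receptor, on which the dynorphins act. In experiment 1 it was just below the filter, with 26 to 59 reads per rat, and its normalized counts were 44.3, 43.2, 37.2, 63 and 43.7 in water rats 1 to 5. In EtOH rats 1 to 5 they were 57.2, 38, 43.4, 30.8 and 28.8. EtOH rats 4 and 5 lay below every water rat. The difference of mean log2 CPM was -0.23 (exact permutation test, two-sided, p = 0.31), and the edgeR fit without the filter gave -0.22 (SE 0.21, 95% interval -0.66 to 0.23).

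In experiment 2 Oprk1 passed the filter and had the lowest p of the 5 genes tested by edgeR. Its normalized count after water gavage ran from 87.7 over a median of 170 to 214. After EtOH gavage it ran from 155 over a median of 197 to 379. EtOH gavage rats 1 and 2 had 379 and 367, above every water gavage rat, and the other 4 EtOH gavage rats had 155 to 221. The means were 158 ± 47.1 (SD, n = 6) and 244 ± 103 (SD, n = 6). The log2 fold change was 0.62 (SE 0.29, 95% interval 0.01 to 1.24), or 1.54-fold, with an unadjusted p of 0.0474 and an FDR of 0.675 in edgeR's test. The exact permutation test, two-sided, gave p = 0.106.

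EtOH gavage rats 1 and 2, the pair with the highest Oprk1, were both among the 4 libraries that stood apart, and their cortical markers summed to 5.51 and 44.8 CPM. Water gavage rats 1 and 5, which stood apart as well, had the highest and the lowest Oprk1 of their group, 214 and 87.7. Without these 4 libraries Oprk1 had a log2 fold change of 0.17 (edgeR FDR 0.681), the water gavage rats lying at 116 to 190 and the EtOH gavage rats at 155 to 221. With the first principal component as a covariate it was 0.32, and with the mean log2 CPM of the cortical markers as a covariate it was 0.57. Leaving out 1 rat at a time gave 0.454 to 0.729, the lowest without EtOH gavage rat 1, and FDR values of 0.395 to 0.994.

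**Figure D2:**
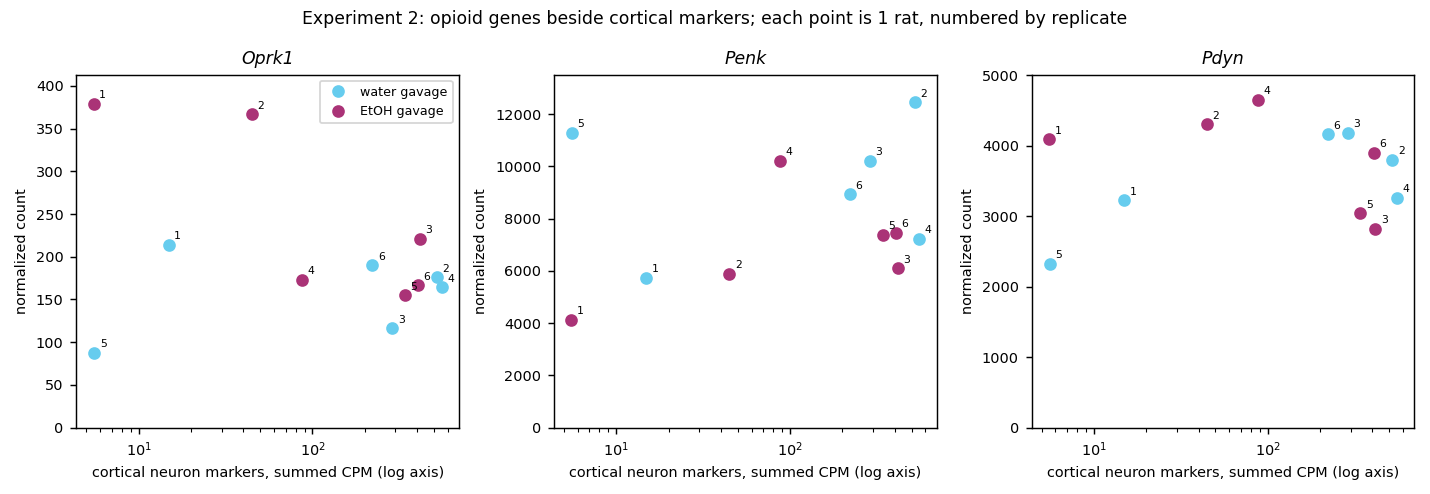
Normalized count of Oprk1, Penk and Pdyn in experiment 2 against the summed CPM of 6 cortical excitatory neuron markers (log axis), with 1 point per rat, numbered by replicate. The 4 libraries that stood apart lie at 5.51 to 44.8 CPM on the left. Among them are the 2 highest Oprk1 counts (367 and 379) and the lowest (87.7). The lowest Penk count (4125) and the lowest Pdyn count (2326) are there as well.

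Oprl1 encodes the nociceptin receptor. In experiment 1 its normalized counts were 111, 145, 163, 138 and 164 in water rats 1 to 5. The EtOH rats 1 to 5 had 176, 114, 163, 197 and 182. EtOH rats 1, 4 and 5 lay above every water rat, and EtOH rat 2 lay below 4 of them. The means were 144 ± 21.7 (SD, n = 5) and 166 ± 31.6 (SD, n = 5), a log2 fold change of 0.19 (SE 0.14, 95% interval -0.11 to 0.49) with an edgeR FDR of 0.918. Without EtOH rat 2 it was 0.30 with an unadjusted p under 0.05 and an edgeR FDR of 0.601. In that fit 7.6% of all genes had an unadjusted p under 0.05, and Oprl1 had none in the other 9 fits that left out 1 rat. The log2 fold change shrank to 0.04 with the projection neuron markers as a covariate.

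After water gavage in experiment 2, the normalized count of Oprl1 ran from 87.7 over a median of 288 to 399. After EtOH gavage it ran from 299 over a median of 333 to 383. All 6 EtOH gavage rats lay within the range of the water gavage rats, whose lowest and highest counts both came from libraries that stood apart (rats 5 and 1). The means were 277 ± 108 (SD, n = 6) and 335 ± 34.7 (SD, n = 6). The log2 fold change was 0.28 (SE 0.27, 95% interval -0.30 to 0.85), with an edgeR FDR of 0.675, and it was 0.27 without the 4 libraries. Leaving out 1 rat at a time gave 0.0937 to 0.409, the lowest without water gavage rat 5 and the highest without water gavage rat 1.

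**Figure D3:**
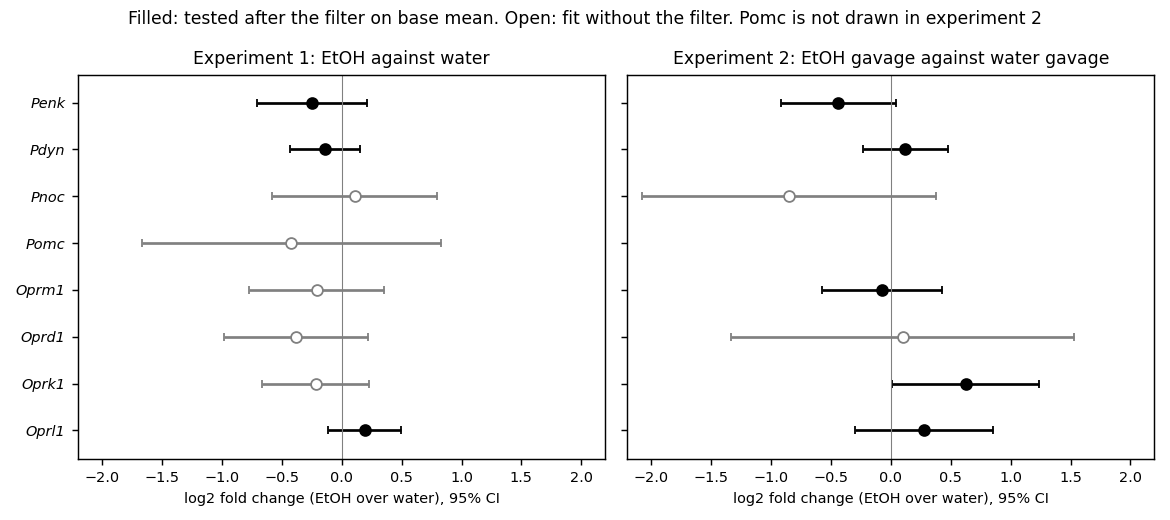
Log2 fold change of EtOH over water with its 95% interval in experiment 1 (left) and of EtOH gavage over water gavage in experiment 2 (right); filled points passed the filter on low counts, open points come from the fit without it, and Pomc is not drawn in experiment 2, where it had 1 read. The interval of Oprk1 in experiment 2 (0.01 to 1.24) is the one that leaves out 0, and its FDR was 0.675.

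Whether the difference between groups changed from 1 experiment to the other was itself tested for the 3 genes that passed the filter in both. The contrasts are unlike, drinking against water and gavage on top of drinking, so the test cannot decide on a common EtOH effect. The authors regard a direct comparison as not possible without a pure water control in experiment 2. The model used 1 estimate of spread, though edgeR's common variation between rats was 11.1% in experiment 1 and 31.3% in experiment 2. The effect in experiment 2 minus that in experiment 1 was -0.19 on the log2 scale for Penk (SE 0.35, edgeR FDR 0.853). It was 0.26 for Pdyn (SE 0.24, edgeR FDR 0.813) and 0.08 for Oprl1 (SE 0.34, edgeR FDR 0.931). The model called 0 of 3 members, 0% of all 8176 genes tested, and 1.88% of all genes had an unadjusted p under 0.05. Without the 4 libraries that stood apart the difference was -0.06 for Penk, 0.05 for Pdyn and 0.05 for Oprl1, and 0 of the 3 were called. DESeq2 was not run on this difference. Oprk1 had a log2 difference of -0.23 in experiment 1 and a log2 fold change of 0.62 in experiment 2, but a test of that difference was not run because the gene was below the filter in experiment 1.

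The level of some members, in reads scaled by the total on genes (CPM) over all rats, differed between the experiments. Oprk1 averaged 11.1 CPM in experiment 1 (7.47 to 16.1) and 25.9 CPM in experiment 2 (11.3 to 46), a ratio of 2.33 that was higher than that of 97.5% of 13688 genes. Oprd1 averaged 4.06 CPM (2.02 to 5.71) and 0.813 CPM (0 to 2.04), and Pnoc 6.78 CPM (2.56 to 11.3) and 1.95 CPM (0 to 4.1). Pomc averaged 0.879 CPM in experiment 1 and 0.0107 CPM in experiment 2. Penk went from 705 to 1060 CPM, Pdyn from 347 to 475 CPM, Oprm1 from 9.45 to 10.7 CPM and Oprl1 from 40.2 to 39.9 CPM, each with overlapping ranges. The ranges of Oprk1, Oprd1 and Pnoc overlapped as well, and those of Pomc (0.191 to 2.3 and 0 to 0.128 CPM) did not. The ratios of Penk and Pdyn were higher than those of 86.4% and 80.3% of genes, and those of Pnoc and Oprd1 than 6.39% and 3.25%. The median log2 ratio over all 13688 genes was -0.09. The libraries kept the strand of the transcript in experiment 2 and not in experiment 1, and the reads, rats and drinking schedules differed as well, so these cannot be told apart. In the RefSeq annotation of GRCr8, Pomc overlaps Efr3b, Oprm1 overlaps Ipcef1 and 2 other entries, and Pdyn overlaps 1 non-coding gene, while Penk, Pnoc, Oprd1, Oprk1 and Oprl1 overlap 0 genes.

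In experiment 1, Penk varied more between rats of 1 group than most genes did. Its within-group SD in log2 CPM was 0.45, larger than that of 97.8% of the genes tested, and those of Pdyn (0.28) and Oprl1 (0.27) were larger than 86.1% and 84.2%. In experiment 2 the SD of Oprl1 was 0.56, larger than that of 79.5% of genes, and that of Oprk1 was 0.53, larger than 77.1%. There the SD of Penk was 0.43 (66.1%), that of Oprm1 0.37 (56.9%) and that of Pdyn 0.30 (41.4%).

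This variation was set beside markers of the projection neurons known to make each peptide, on deviations from group means, over 14 pairs of genes and experiments in all. Neither Penk with Drd1 nor Pdyn with Drd2 was among the pairs, so the pairs cannot show which neurons a relation belongs to. Drd1 and Drd2 deviated alike in experiment 1 where Penk was lowest (water rat 5, -0.54 and -0.30) and highest (EtOH rat 2, 0.53 and 0.61). In experiment 1, over 10 rats, Penk varied together with Drd2 (Pearson's r = 0.913, permutation p = 0.00111, adjusted p = 0.0141, Spearman's rho = 0.83, permutation p = 0.0084, adjusted p = 0.0392). Pearson's r was 0.831 without the 2 rats farthest from the Drd2 median. Penk with Adora2a, the adenosine receptor of the same neurons, had r = 0.855 (permutation p = 0.00847, adjusted p = 0.0237), rho = 0.855 (permutation p = 0.00306, adjusted p = 0.0392), and r = 0.948 without 2 rats. Pdyn with Drd1 had r = 0.86 (permutation p = 0.00201, adjusted p = 0.0141), rho = 0.794 (permutation p = 0.0141, adjusted p = 0.0493), and r = 0.782 without 2 rats.

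Pdyn with Tac1, the substance P precursor of the direct pathway, had r = 0.791 (permutation p = 0.00674, adjusted p = 0.0236), rho = 0.745 (permutation p = 0.0208, adjusted p = 0.0583), and r = 0.667 without 2 rats. The 2 precursors were related with each other as well, although they mark different neurons, with r = 0.759 (permutation p = 0.0106, adjusted p = 0.0248), rho = 0.636 (permutation p = 0.0562, adjusted p = 0.112), and r = 0.761 without 2 rats. Neither receptor gene set beside Drd1 passed the threshold in experiment 1. For Oprm1, r was 0.244 (permutation p = 0.521, adjusted p = 0.73), rho 0.188 (permutation p = 0.626, adjusted p = 0.731), and r 0.46 without 2 rats. For Oprk1, r was 0.293 (permutation p = 0.425, adjusted p = 0.729), rho 0.382 (permutation p = 0.311, adjusted p = 0.5), and r 0.416 without 2 rats.

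In experiment 2 each relation is given with and without the 4 libraries that stood apart, and without them the group means were taken anew. Penk with Adora2a had r = 0.779 over all 12 rats (permutation p = 0.00557, adjusted p = 0.0236), rho = 0.783 (permutation p = 0.00686, adjusted p = 0.0392), r = 0.634 without the 2 farthest rats and r = 0.749 (adjusted permutation p = 0.0864) over the other 8. Penk with Drd2 had r = 0.565 (permutation p = 0.0689, adjusted p = 0.138), rho = 0.664 (permutation p = 0.0304, adjusted p = 0.071), r = 0.492 without the 2 farthest rats and r = 0.793 (adjusted permutation p = 0.082) over the 8.

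Pdyn with Drd1 had r = -0.00925 over the 12 rats of experiment 2 (permutation p = 0.977, adjusted p = 0.977), rho = 0.0909 (permutation p = 0.791, adjusted p = 0.852), r = 0.565 without the 2 farthest rats and r = 0.848 over the 8 (adjusted permutation p = 0.082). Pdyn with Tac1 had r = 0.169 (permutation p = 0.609, adjusted p = 0.775), rho = 0.0629 (permutation p = 0.858, adjusted p = 0.858), r = 0.244 without the 2 farthest rats and r = 0.721 over the 8 (adjusted permutation p = 0.165). Penk with Pdyn had r = 0.0776 (permutation p = 0.816, adjusted p = 0.948), rho = 0.273 (permutation p = 0.412, adjusted p = 0.577), r = 0.331 without the 2 farthest rats and r = 0.727 over the 8 (adjusted permutation p = 0.082). Water gavage rat 5, which stood apart, had a log2 deviation from its group mean of 0.54 for Drd1 and of -0.56 for Pdyn.

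The receptor genes of experiment 2 set beside Drd1 did not pass the threshold with or without those libraries. Oprm1 had r = 0.0488 (permutation p = 0.88, adjusted p = 0.948), rho = 0.238 (permutation p = 0.477, adjusted p = 0.608), r = 0.499 without the 2 farthest rats and r = 0.0695 over the 8. Oprk1 had r = 0.243 (permutation p = 0.469, adjusted p = 0.729), rho = 0.336 (permutation p = 0.321, adjusted p = 0.5), r = 0.585 without the 2 farthest rats and r = 0.0175 over the 8. Of the 14 pairs 6 had an adjusted permutation p under 0.05 for Pearson's r, 5 in experiment 1 and 1 in experiment 2, and the number fell to 3 without water rat 5 of experiment 1.

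**Figure D4:**
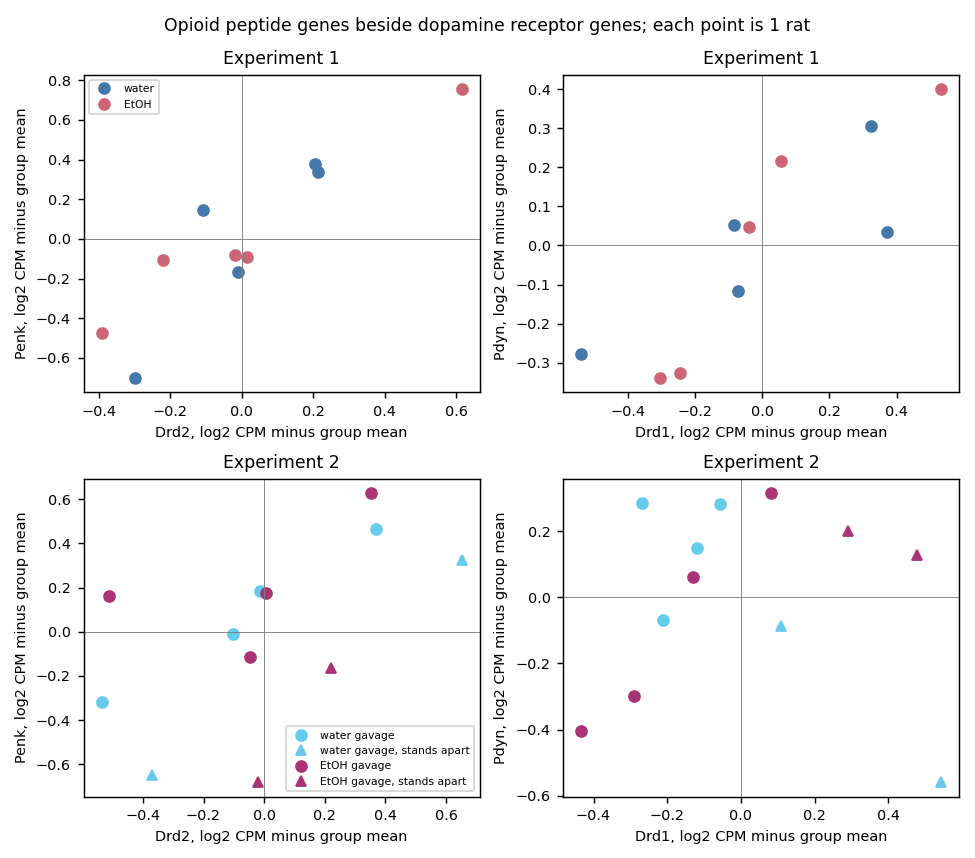
Penk against Drd2 (left) and Pdyn against Drd1 (right), as log2 CPM minus the group mean, with 1 point per rat in experiment 1 (top) and experiment 2 (bottom); triangles are the 4 libraries that stood apart. The points of experiment 1 run along a diagonal (r = 0.913 and 0.86), and in experiment 2 the triangles of the Pdyn panel lie off the line of the other 8 rats. For those 8, r was 0.848 with group means taken over them alone, while the points are drawn about the means of all rats of a group.

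For the 3 members tested in both experiments, the genes most alike in their deviations from group means were taken by the mean of the 2 within-experiment Pearson coefficients, over 8175 other genes and over 10 and 12 rats that share library and depth. For Penk these were Slc25a25, a mitochondrial carrier (r = 0.863 and 0.964 in experiments 1 and 2), Ptpn5, a striatum-enriched tyrosine phosphatase (0.902 and 0.917), and Pde1b, a calcium-dependent phosphodiesterase (0.883 and 0.934). For Pdyn they were Map2k1, a kinase of the MAPK cascade (0.906 and 0.785), Filip1 (0.861 and 0.771) and Lypd1 (0.722 and 0.888). For Oprl1 they were Disp2 (0.91 and 0.85), Galnt16 (0.843 and 0.895) and Spats2l (0.916 and 0.809). Over the 8 libraries of experiment 2 that did not stand apart, the 9 coefficients were 0.65 to 0.958. This is no separate check, since the genes were picked with these libraries included.

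Other genes of opioid signalling were read from 5 lists of 46 genes in all, of which the filter kept 40 in each experiment. In edgeR's test 0 of the 40 rose and 0 fell at an FDR under 0.05 in experiment 1, and the same counts held in experiment 2, as for all genes (0%). At an unadjusted p under 0.05 there was 1 of 40 in experiment 1 (5.58% of all genes) and 0 of 40 in experiment 2 (1.33% of all genes). Without the 4 libraries that stood apart there were 4 of 40 in experiment 2, with 10.6% of all genes, and with the cortical markers as a covariate 6 of 40, with 12.4%. The edgeR fit without the filter gave 3 list genes at an unadjusted p under 0.05 in experiment 1 (5.85% of all genes) and 0 in experiment 2 (2.03%). DESeq2 at its default settings gave 0 in experiment 1 (4.51%) and 0 in experiment 2 (2.23%). The median log2 fold change of the 40 was 0.01 in experiment 1 and -0.09 in experiment 2, and -0.05 in experiment 2 without the 4 libraries, where the median over all genes was 0.02.

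Adcy1, an adenylyl cyclase of the kind that opioid receptors inhibit, was the gene with an unadjusted p under 0.05. Its normalized count was 567 ± 248 (SD, n = 5) with water and 795 ± 150 (SD, n = 5) with EtOH in experiment 1, a log2 fold change of 0.48 (SE 0.22, edgeR FDR 0.866). In experiment 2 it was 602 ± 283 (SD, n = 6) in the water gavage group. The EtOH gavage group had 450 ± 224 (SD, n = 6), and the log2 fold change was -0.42 (SE 0.38, edgeR FDR 0.675), or -0.34 (SE 0.24, edgeR FDR 0.526) without the 4 libraries.

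The lists are given by their medians and ranges, and the genes at the ends of a range were named after their values were seen. The 4 peptide processing genes tested had a median log2 fold change of 0.01 in experiment 1 (Pcsk2 -0.19 to Pam 0.13) and 0.16 in experiment 2 (Pcsk2 -0.10 to Pam 0.17). The 6 peptide-degrading enzymes tested had a median of -0.08 (Dpp3 -0.25 to Ace 0.06) and -0.12 (Ace -0.67 to Mme 0.16). The 15 receptor regulators, such as arrestins, receptor kinases and RGS proteins, had a median of -0.01 (Rgs9 -0.35 to Grk5 0.25) and -0.27 (Rgs19 -0.71 to Gprasp1 0.19).

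The 13 G protein and effector genes tested had a median of 0.08 (Adcy5 -0.14 to Adcy1 0.48) and -0.15 (Kcnj9 -0.58 to Gnai3 0.26). Of the 3 transcription factor genes linked to Pdyn and Penk, 2 were tested, Kcnip3, which encodes the repressor DREAM (0.02 and 0.01), and Fosb (0.17 and -0.03). Without the 4 libraries the medians of the 5 lists in experiment 2 were 0.11 for processing, -0.06 for degradation, -0.12 for receptor regulation, -0.07 for G proteins and effectors and 0.08 for transcription factors, with 0 genes at an FDR under 0.05. The median log2 fold change over all genes tested was -0.00118 in experiment 1 and 0.000885 in experiment 2.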

How the data were processed

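NAc RNA-seq libraries of 22 rats in 4 groups were analysed, grouped and numbered by their labels. The authors aligned reads to rn6 with TopHat2 (2.0.13 in the submitters' processing notes) and counted them per gene with htseq-count (HTSeq 0.5.3p3 and 0.6.0 are both named). The deposited values are raw read counts per gene, with 5 summary lines that were left out. The annotation release and counting options, strand included, are not given in the sources used here. Depth was 2962291 to 8765472 reads on genes per rat.

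Each experiment was fitted alone in edgeR 4.0.16 (R 4.3.3) with TMM factors, estimateDisp, glmQLFit and glmQLFTest, over the 8655 genes with a base mean (DESeq2 size factors) above the median of 43.636 in experiment 1 and 66.443 in experiment 2, with Benjamini-Hochberg adjustment over all of them and a threshold of 0.05. Members below the filter were compared with exact permutation tests on log2 CPM (prior count 2). Correlations were tested over all reorderings of rats within groups, in place of the random permutations first planned. The replicates were separate rats, and the lowest chi-square per degree of freedom between replicates was 2.668. The fits were tested on simulated counts.

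The members and lists were chosen with earlier results of these data known. Named were the 8 members, list genes with an unadjusted p under 0.05, and for each member tested in both experiments the 3 genes most like it. Of the list genes Grk2 and Grk3 were found under older symbols (Adrbk1 and Adrbk2), and Pcsk1n was listed at 0 in every library. Alternatives were DESeq2 1.42.0, its size factors in edgeR, other filters, a joint fit of all groups, a replicate block, projection neuron markers as a covariate, a prior count of 0.5, another mode of glmQLFit, and each rat left out. Cortical markers or the first principal component as a covariate, and leaving out 4 libraries, were chosen after seeing the data.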

Additional observations from a re-analysis of the deposited data

Results flagged for a closer look

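Of 31 groups of values examined, 3 held 1 sample far from the others, where chance gives about 1 in 20 groups, or 1.55. Penk in EtOH rat 2 of experiment 1 had a normalized count of 4024, with the next at 2249 and the lowest at 1717. Oprk1 in water rat 4 of experiment 1 had a normalized count of 63, with the next at 44.3 and the lowest at 37.2. Pomc in water gavage rat 2 of experiment 2 had a normalized count of 0.998, which is 1 read, with 0 in the other 5 rats of the group.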

How the results depend on the processing

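The number of opioid genes and of list genes with an FDR under 0.05 was 0 in both experiments under every alternative run (DESeq2 with and without a prior, its size factors, other filters, 1 fit of all groups, the covariates, the replicate block, the other mode of glmQLFit and each rat left out). Penk and Pdyn of experiment 1 turned in sign with projection neuron markers as a covariate (log2 fold changes of 0.0403 and 0.0314) and with the first principal component (0.214 and 0.0639). Without the 4 libraries that stood apart, Pdyn of experiment 2 turned to -0.0742, its r with Drd1 to 0.848 and the log2 CPM difference of Oprd1 to 0.0694. The cause was not tested.

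With each rat left out in turn, the log2 fold change of Oprm1 in experiment 2 ran from -0.178 to 0.078. The log2 CPM difference ran from -0.0842 to 0.392 for Pnoc and from -0.352 to 0.147 for Pomc in experiment 1, and from -0.486 to 0.137 for Oprd1 and -0.117 to 0 for Pomc in experiment 2. The effect of experiment 2 minus that of experiment 1 ran from -0.338 to 0.0582 for Penk and from -0.105 to 0.203 for Oprl1. In experiment 2, r ran from -0.284 to 0.577 for Pdyn with Drd1, -0.233 to 0.624 for Pdyn with Tac1, -0.13 to 0.331 for Penk with Pdyn, -0.0741 to 0.561 for Oprm1 with Drd1 and -0.00408 to 0.765 for Oprk1 with Drd1. The number of members below the filter with an exact p under 0.05 ran from 0 to 1 in experiment 2, and the number of correlated pairs from 3 to 7.

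Correlations of same-numbered deviations ran from -0.125 to 0.144 in experiment 1, which gave no sign that the replicate numbers pair the rats. In experiment 2 they ran from -0.759 to 0.835, and values this large of both signs cannot decide it. With the replicate number as a block, 0 members were called, the log2 fold changes of Penk were -0.263 and -0.45 and that of Oprk1 in experiment 2 was 0.589, and genes with an unadjusted p under 0.05 went from 115 to 414 in experiment 2. That number was 916 without the 4 libraries and 1071 with the cortical covariate. Few reads limit what Pomc and Oprd1 can show.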
